A study of Rattus norvegicus with 325 samples.

Results

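Aminoacyl-tRNA synthetases are the enzymes that load each transfer RNA with its amino acid. Their genes were followed here in 4 muscles of ageing rats. Members were taken by gene symbol from the count files, with the lines of a symbol summed, and 36 genes were found among 17315 distinct symbols. Of these, 18 encode cytosolic enzymes or subunits, 2 (Gars for glycine and Kars for lysine) serve the cytosol and the mitochondrion, and 15 with symbols ending in 2 encode mitochondrial enzymes. The last member is Pstk, a kinase that acts on a charged transfer RNA. Iars2 and Mars2 were not among the symbols counted, so they were not analysed here. Members took 0.193% of all counts, and all 36 passed the filter on low counts in each muscle.

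The animals were male Sprague Dawley rats, an outbred strain, with no treatment named in the labels. Diaphragm, gastrocnemius, soleus and tibialis anterior were taken at 7 ages (6, 9 and 12 months, then 18, 21, 24 and last 27 months), and total RNA was sequenced after removal of ribosomal RNA, 325 libraries in all. Each group of 1 muscle and 1 age had 12 libraries, except that the 9-month diaphragm had 11, the 21-month tibialis anterior had 13, and the gastrocnemius had 10, 12, 11, 11, 9, 9 and 11 in order of age. The study gives the number of samples as the number of animals, and p-values measure the spread between these samples. The median library total was 31.9 M counts, and totals lay between 17.6 and 85.3 M.

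Tissues of 1 age were collected on the same day, so age and collection day cannot be told apart. Running numbers in the sample descriptions form 3 series. The gastrocnemius libraries make up the first, and the third holds 39 libraries, namely the 12-month libraries of the other muscles and 1 library of each at 21 months. Comparisons of the gastrocnemius with another muscle, and of 12 months with 6 months in the other muscles, cannot be told apart from these series. The muscle labels were checked against slow fibre genes. Their summed level at 6 months was 69000 to 85400 CPM (CPM is the share of a library's counts on a gene, scaled up to a fixed total for all libraries) for the slow soleus and 2350 to 5200 CPM for the fast tibialis anterior. By the distance of a library from its group, 11 libraries stood apart (over 2 times the median distance of their muscle), the farthest being replicate 11 of the 18-month diaphragm at 6.38 times.

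As background, each synthetase pairs 1 amino acid with its transfer RNAs at the cost of ATP, and errors at this step put wrong residues into protein. The enzymes fall into class I and class II by the fold of their catalytic domain. In animal cells several cytosolic synthetases sit in a complex held together by the scaffold proteins Aimp1, Aimp2 and Eef1e1, while mitochondria use their own set of enzymes, imported from the cytosol, for the few proteins encoded by mitochondrial DNA. Skeletal muscle holds much of the protein of the body. Many cytosolic synthetase genes are known targets of Atf4, a factor that is switched on when amino acids run short.

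Promoters are shown because 3 genes carried the largest changes or their contrast. These are Farsb and Farsa, which encode the beta and alpha subunits of cytosolic phenylalanyl-tRNA synthetase, and Pstk. Sequences are those of RefSeq (build GRCr8), from 250 bases before to 50 bases after the annotated start, read 5′ to 3′ on the strand of the gene. The build differs from the one behind the counts, so these positions belong to the sequence table alone. Capitals mark the E-box CACGTG in Farsb and the muscle E-box CAGCTG in Pstk, and Farsa had no match to any motif searched.

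Farsb (chr9:87395456-87395755, minus strand): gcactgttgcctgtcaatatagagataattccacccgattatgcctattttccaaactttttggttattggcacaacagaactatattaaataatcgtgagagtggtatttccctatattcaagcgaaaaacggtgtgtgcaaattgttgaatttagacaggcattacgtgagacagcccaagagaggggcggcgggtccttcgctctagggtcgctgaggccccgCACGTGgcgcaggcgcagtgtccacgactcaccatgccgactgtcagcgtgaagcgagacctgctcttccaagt
Farsa (chr19:40205774-40206073, minus strand): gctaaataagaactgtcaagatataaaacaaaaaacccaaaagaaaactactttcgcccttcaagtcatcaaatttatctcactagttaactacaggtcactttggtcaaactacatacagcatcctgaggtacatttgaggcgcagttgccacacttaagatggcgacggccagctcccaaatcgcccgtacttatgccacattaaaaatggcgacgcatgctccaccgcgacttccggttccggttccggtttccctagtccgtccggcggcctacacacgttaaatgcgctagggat
Pstk (chr1:195587661-195587960, plus strand): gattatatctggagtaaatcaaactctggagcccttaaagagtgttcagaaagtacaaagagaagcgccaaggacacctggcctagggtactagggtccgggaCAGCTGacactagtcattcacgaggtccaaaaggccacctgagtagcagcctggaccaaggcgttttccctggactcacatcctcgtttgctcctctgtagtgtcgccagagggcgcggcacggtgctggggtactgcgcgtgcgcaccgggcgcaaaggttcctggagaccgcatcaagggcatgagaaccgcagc

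Of the 36 members, 18 had the same symbol in the RefSeq table and 17 matched a listed synonym, and 32 had a promoter sequence. Dars, Gars and Rars were among those without one. The element TGATGNAA, which is bound by Atf4 with C/EBP factors, was searched on both strands and was found in 7 of the 32 member promoters (21.9%), against 3.82% of 27457 promoters in all. All 7 members encode cytosolic enzymes (Aars, Cars, Iars, Mars, Nars, Tars and Yars), and 0 of 14 mitochondrial promoters held it. Windows around the element (in capitals, on either strand) are shown for 4 of them to let the positions be compared.

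Cars (chr1:208225335-208225362, minus strand): ggcgccgcggTTGCATCAgattctggaa
Iars (chr17:15193659-15193686, minus strand): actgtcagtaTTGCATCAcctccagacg
Mars (chr7:65023753-65023780, minus strand): cccgttccggTTGCATCAgcgtgggctc
Tars (chr2:62114812-62114839, minus strand): tggcgtcccgTTGCATCAgctggttagc

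The element began 24 bases before the start in Iars, 17 in Mars and 27 in Tars. In Cars it began at base 18 after the start. Other motifs were in fewer member promoters than this element, though some also exceeded their share of all promoters. The Nrf1 core CGCATGCG, bound by a regulator of nuclear genes for mitochondria, was in 6.25% of member promoters (Vars2 and Wars2) and 1.81% of all. The Esrra motif AAGGTCA was in 0 of 32 and in 4.37% of all, the E-box CACGTG in 18.8% and 6.65%, and the muscle E-box CAGCTG, added after the values were seen, in 12.5% and 15.1%. The E-box occurred in Aars, Ears2, Farsb, Iars, Tars and Vars. The CAGCTG matches of Tars and Yars overlapped their TGATGNAA match by some bases. A match is a description of letters and says nothing of binding.

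To ask how these genes change with age, each age was compared with 6 months within a muscle. Calls needed a change over 1.5-fold and a p under 0.05 after Benjamini-Hochberg adjustment over all genes of the muscle (limma-voom). Few members were called, and the same 3 genes, Farsb, Pstk and Aars2, made up all calls at 24 and 27 months. Farsb rose in the gastrocnemius and tibialis anterior, Pstk fell in the soleus and tibialis anterior and, at 24 months, in the gastrocnemius, and Aars2, the mitochondrial enzyme for alanine, fell in the gastrocnemius. The counts at 27 months are set beside the share of all genes called in the same direction. In the diaphragm 0 members were higher (3.27% of genes) and 0 lower (4.25%). The gastrocnemius had 1 higher (15.1%) and 1 lower (7.76%), the soleus 0 higher (9.21%) and 1 lower (5.78%), and the tibialis anterior 1 higher (17.2%) and 1 lower (10.4%). With 36 members these counts lie below the background share in every muscle and direction. By edgeR the diaphragm counts were again 0 and 0, and 17 members there had an unadjusted p under 0.05 (limma).

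No member was called at 9, 12, 18 or 21 months in any muscle (limma), and between 0 and 22 members per muscle and age had an unadjusted p under 0.05. The share of all genes called at these ages was 0.108%, 0.532%, 2.25% and 1.68% for the diaphragm, 0.143%, 0.885%, 4.32% and 5.81% for the gastrocnemius, 0.123%, 0.353%, 2.84% and 2.61% for the soleus and 0.00851%, 0.196%, 5.45% and 6.47% for the tibialis anterior. At 24 months Farsb and Pstk were called in the gastrocnemius, against 18.8% of genes, and no member in the diaphragm (2.68%), soleus (6.51%) or tibialis anterior (14.5%).

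Changes under 1.5-fold were common. At an adjusted p alone, 12 members were higher and 4 lower at 27 months in the diaphragm (all genes 20.3% and 24.7%). The counts were 7 and 17 for the gastrocnemius (33.2% and 28.9%), 3 and 21 for the soleus (27.4% and 26.4%) and 9 and 19 for the tibialis anterior (37.7% and 36.5%). The split thus leaned to higher in the diaphragm and to lower in the 3 limb muscles. The median log2 change of the members was 0.06 (diaphragm), -0.12 (gastrocnemius), -0.17 (soleus) and -0.09 (tibialis anterior), beside 0.00, 0.04, 0.02 and 0.02 for all genes. These medians rest on trimmed-mean scaling. When libraries were scaled by total counts alone, the median of all genes moved to 0.04, 0.32, 0.16 and 0.34 and that of the members to 0.10, 0.16, -0.02 and 0.24, so their sign turned in the gastrocnemius and tibialis anterior, while they stayed below all genes in the 3 limb muscles.

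**Figure D1:**
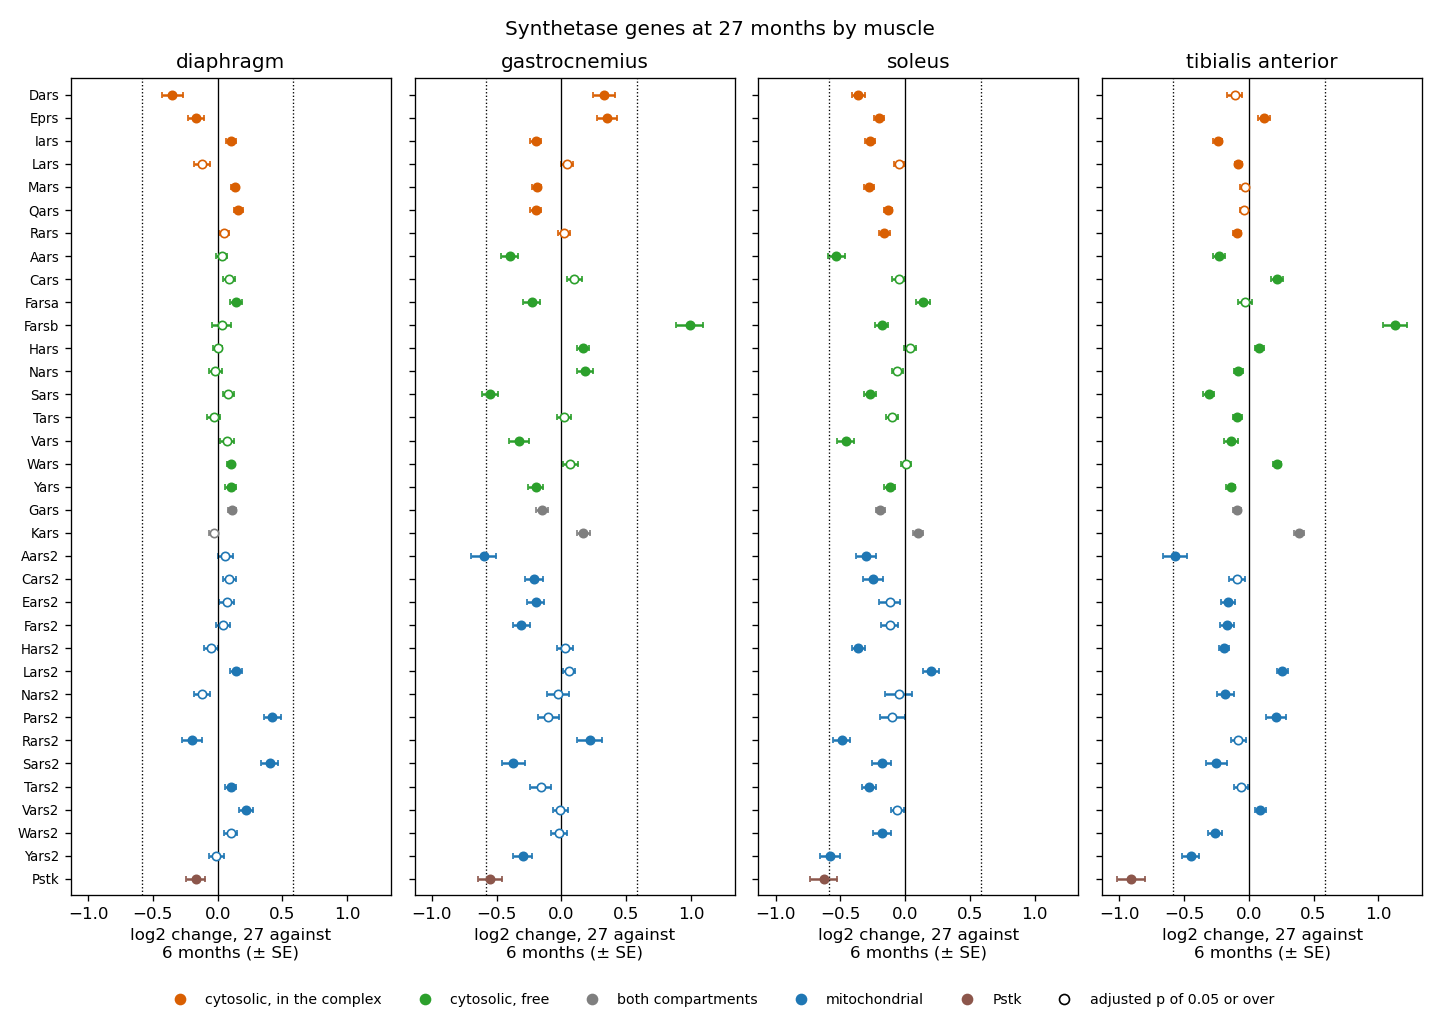
Change of the synthetase genes, but for 1 mitochondrial member, between 6 and 27 months (x axis, log2 scale, mean difference with its SE) in the 4 muscles, with genes on the y axis grouped by role and open points for an adjusted p of 0.05 or over. Dotted lines mark 1.5-fold, and Farsb lies far to the right in the gastrocnemius (0.99) and tibialis anterior (1.13) while Pstk lies farthest to the left in the tibialis anterior (-0.91).

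Without matching for expression level, the members varied less than other genes. Their median absolute log2 change at 27 months was 0.10 (diaphragm), 0.20 (gastrocnemius), 0.18 (soleus) and 0.15 (tibialis anterior), against 0.17, 0.30, 0.23 and 0.33 for all genes tested. The median SD between libraries of 1 group was also lower, for example 0.074 log2 units at 6 months and 0.152 at 27 months in the tibialis anterior, against 0.128 and 0.239 for all genes. The 2 catalytic classes did not stand far from each other. The 16 class I genes had medians of 0.10, -0.11, -0.14 and -0.08 in the 4 muscles (diaphragm, gastrocnemius, soleus, tibialis anterior) and the 18 class II genes 0.03, -0.12, -0.15 and -0.09. Eprs, which holds an enzyme of each class, and Pstk were left out of this count.

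Farsb showed the largest change of any member. Among the 6-month libraries of the tibialis anterior its level ran from 49.0 to 57.0 CPM with a median of 50.7, and among those of 27 months from 62.6 to 178 with a median of 110. Every library of 27 months lay above every library of 6 months, as for 19.9% of all genes tested in this muscle in either direction. The change was 1.13 on the log2 scale (SE 0.095, adjusted p = 5.6e-18, n = 12 and 12). Gastrocnemius levels went from 39.5 to 56.6 CPM (median 47.9, n = 10) to between 57.6 and 165 (median 90.7, n = 11), a log2 change of 0.99 (SE 0.10, adjusted p = 3.6e-13). These groups did not overlap either, as for 14.2% of genes.

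The old libraries were widely spread, with an SD of 0.47 on the log2 scale in the tibialis anterior and 0.42 in the gastrocnemius at 27 months, against 0.07 and 0.16 at 6 months. Median CPM in the tibialis anterior was 52.0, 53.3, 51.5, 57.5 and 72.2 at 9, 12, 18, 21 and 24 months, and in the gastrocnemius 50.5, 50.1, 51.9, 59.3 and 99.4. At 21 months the highest library of the tibialis anterior was at 81.9 and that of the gastrocnemius at 84.1, above all 6-month libraries of these muscles. The former was among the libraries that stood apart (3.04 times the median distance). The next highest of the tibialis anterior, which did not stand apart, was at 76.8. The 24-month changes were 0.91 (SE 0.11, adjusted p = 6.5e-11) in the gastrocnemius, which was called, and 0.55 (SE 0.095, adjusted p = 9.3e-07) in the tibialis anterior, which was under 1.5-fold.

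Neither the diaphragm nor the soleus showed a rise of Farsb. Diaphragm levels were 60.6 to 74.8 CPM at 6 months (median 67.4) and 57.6 to 88.6 at 27 months (median 66.8), a change of 0.03 (SE 0.071, adjusted p = 0.77). In 1 library of the diaphragm at 18 months, the one that stood apart most, the level was 32.2. Soleus levels were 74.8 to 89.0 CPM (median 83.9) and 60.3 to 90.8 (median 73.1), a change of -0.18 (SE 0.051, adjusted p = 0.00195). CPM values were scaled within each muscle, so muscles were compared only in 1 fit over all libraries. There, Farsb at 6 months was called between no pair of muscles, the largest difference being 0.48 (soleus over gastrocnemius, adjusted p = 6.96e-08). The change itself differed between the soleus and tibialis anterior (1.32, SE 0.11, adjusted p = 1.3e-23) and between the gastrocnemius and soleus (-1.18, SE 0.12, adjusted p = 4.8e-18, soleus minus gastrocnemius). It also differed between the diaphragm and the gastrocnemius (0.91) and tibialis anterior (1.05), but no difference was called between the gastrocnemius and tibialis anterior (0.14, SE 0.12, adjusted p = 0.42).

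Farsa, the partner subunit, did not follow. Tibialis anterior libraries held 13.6 to 18.7 CPM at 6 months (median 16.6) and 13.9 to 18.0 at 27 months (median 15.4), a change of -0.03 (SE 0.051, adjusted p = 0.56). In the gastrocnemius the range went from 19.2 to 25.6 CPM (median 21.2) to 15.2 to 21.5 (median 18.8), a change of -0.23 (SE 0.065, adjusted p = 0.0017) that was under 1.5-fold. The groups overlapped in both muscles.

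The ratio of Farsb to Farsa counts within a library does not depend on how libraries are scaled. It was chosen after the values were seen. At 6 months it ran from 2.62 to 4.02 in the tibialis anterior (median 3.08) and at 27 months from 3.70 to 12.4 (median 6.89). Gastrocnemius ratios were 1.54 to 2.96 (median 2.16) and 2.82 to 8.94 (median 4.67). The young and old ranges overlapped at their ends in both muscles. The mean log2 ratio differed by 1.16 in the tibialis anterior (permutation p = 2e-05, 100000 resamples, two-sided, the smallest they can give, adjusted p = 8e-05 over 4 muscles) and by 1.22 in the gastrocnemius (permutation p = 4e-05, adjusted p = 8e-05). In the soleus it was lower at 27 months (medians 6.15 and 4.83, difference -0.31, permutation p = 0.0073, adjusted p = 0.0098). The diaphragm had medians of 4.51 and 4.21 (difference -0.10, permutation p = 0.249). Without the libraries that stood apart the differences were 1.32, 1.16, -0.31 and -0.16 in the same order of muscles.

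**Figure D2:**
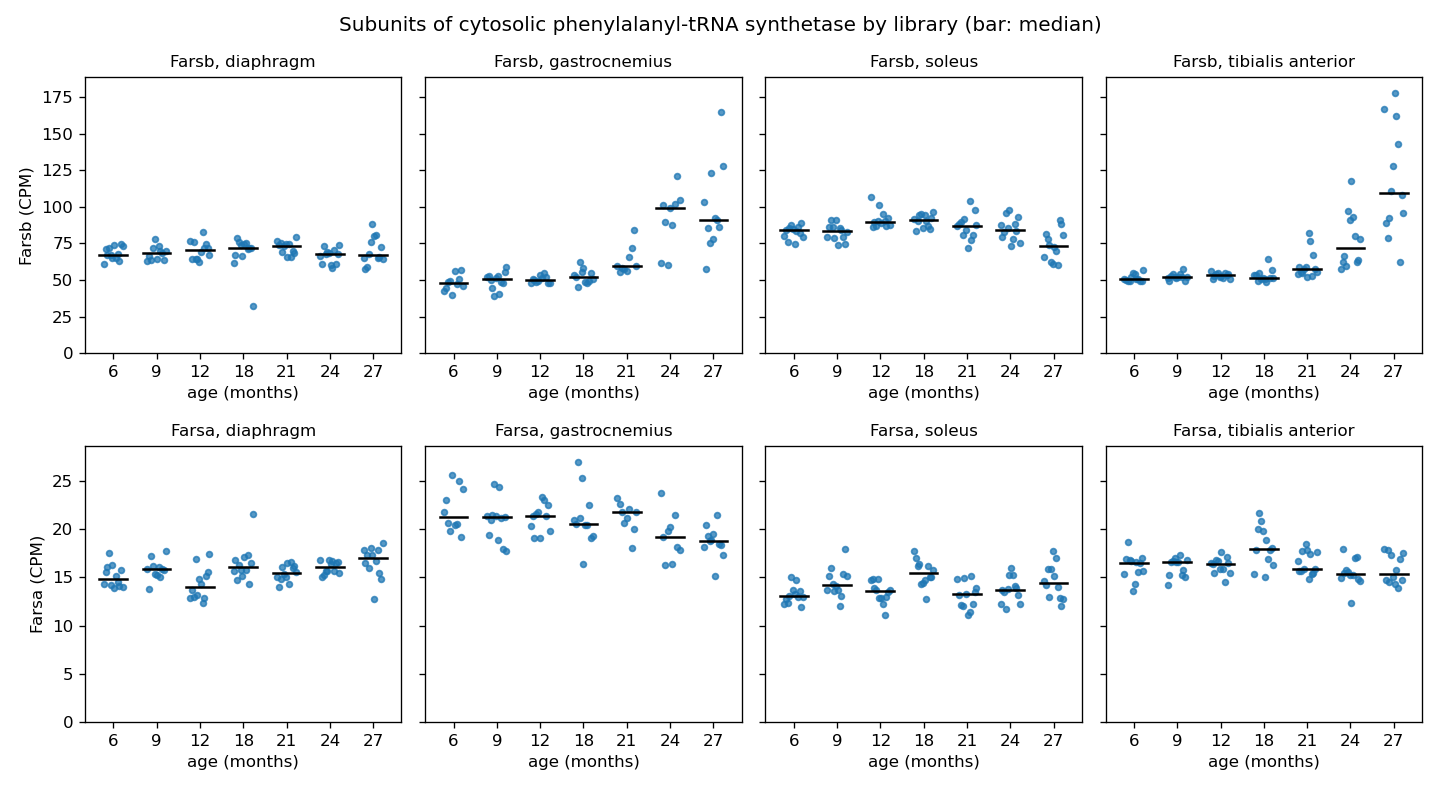
Levels of Farsb (upper panels) and Farsa (lower panels) in CPM on the y axis against age in months for each library (points) with the group median (bar), by muscle. Farsb medians climb from 50.7 to 110 in the tibialis anterior and from 47.9 to 90.7 in the gastrocnemius with wide scatter at 24 and 27 months, while Farsa medians there stay between 15.4 and 21.8.

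The other cytosolic enzymes outside the complex moved less. Sars, the serine enzyme, which also charges the transfer RNA of selenocysteine, was at 84.5 to 132 CPM in the gastrocnemius at 6 months (median 92.4) and 59.2 to 74.6 at 27 months (median 67.8). These groups did not overlap, but the change of -0.55 (SE 0.063, adjusted p = 1.2e-11) was under 1.5-fold. The change was -0.31 in the tibialis anterior (0.01 with total counts alone), -0.27 in the soleus and 0.08 in the diaphragm. Its change differed between the diaphragm and gastrocnemius (-0.69, adjusted p = 1.6e-15).

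Aars, the alanine enzyme, was lower in the soleus, where the levels of 97.1 to 112 CPM at 6 months (median 104) and 58.7 to 83.8 at 27 months (median 75.1) did not overlap. The change of -0.53 (SE 0.063, adjusted p = 1.5e-11) was under 1.5-fold, and it differed from that of the diaphragm (0.03) by -0.62 (adjusted p = 2.7e-12). Across all genes tested in the soleus, 5.62% had groups that did not overlap. Vars, the valine enzyme, changed by -0.46 in the soleus and -0.33 in the gastrocnemius. Cars for cysteine (0.22), Wars for tryptophan (0.22) and Hars for histidine (0.08) had positive changes in the tibialis anterior at an adjusted p under 0.05.

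The 8 members of the multi-synthetase complex (Dars, Eprs, Iars, Kars, Lars, Mars, Qars and Rars) did not move as 1 block. None was called in any muscle at 27 months, and their medians were 0.01 (diaphragm), 0.03 (gastrocnemius), -0.18 (soleus) and -0.06 (tibialis anterior). Eprs, which charges glutamate and proline, and Dars, which charges aspartate, had positive changes in the gastrocnemius (0.35 and 0.33) and negative ones in the soleus (-0.20 and -0.36) and diaphragm (-0.17 and -0.35). The change of Dars differed between the gastrocnemius and diaphragm (0.62, adjusted p = 2.5e-09) and between the soleus and gastrocnemius (-0.69, adjusted p = 6.1e-11, soleus minus gastrocnemius). Without the libraries that stood apart, among them 1 of the 6-month gastrocnemius, the gastrocnemius changes of Dars and Eprs were 0.26 and 0.28.

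Iars for isoleucine, Mars for methionine and Qars for glutamine had the opposite signs in the diaphragm and gastrocnemius, and in the soleus they were lower too. They were slightly higher in the diaphragm (0.10, 0.13 and 0.16) and lower in the gastrocnemius (-0.20, -0.19 and -0.20) and soleus (-0.27, -0.28 and -0.13), all at an adjusted p under 0.05 and all under 1.5-fold. With total counts alone the gastrocnemius values of Iars and Qars were 0.08 each and the soleus value of Qars 0.02. Mars levels in the soleus of 71.0 to 83.2 CPM at 6 months and 53.6 to 68.3 at 27 months did not overlap.

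Kars and Gars serve both compartments from 1 gene each. Kars, the lysine enzyme, had levels of 134 to 148 CPM in the tibialis anterior at 6 months (median 141) and 153 to 214 at 27 months (median 189), with no overlap and a change of 0.39 (SE 0.038, adjusted p = 3.1e-15) under 1.5-fold. Its changes were 0.17, 0.10 and -0.03 in the gastrocnemius, soleus and diaphragm. Gars changed by 0.11 in the diaphragm and by -0.15, -0.19 and -0.09 in the gastrocnemius, soleus and tibialis anterior, and with total counts alone by 0.13 in the gastrocnemius and 0.23 in the tibialis anterior.

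The scaffold of the complex and the enzymes around it were described from lists drawn up with earlier results of these data known. Aimp2 fell in the soleus (-0.74, adjusted p = 4.84e-17) and gastrocnemius (-0.59), and changed by -0.49 in the tibialis anterior and 0.08 in the diaphragm. No change of Aimp1 or Eef1e1 passed 1.5-fold. Of 8 tested genes for synthetase paralogs and editing, 0, 0, 0 and 2 were higher and 0, 2, 1 and 1 lower in diaphragm, gastrocnemius, soleus and tibialis anterior, in this order. The shares of all genes were 3.27%, 15.1%, 9.21% and 17.2% higher and 4.25%, 7.76%, 5.78% and 10.4% lower. Tarsl2, a paralog of the threonine enzyme, fell in the tibialis anterior (-0.90) and gastrocnemius (-0.64). Qrsl1, a subunit of the amidotransferase that makes mitochondrial glutamine transfer RNA, fell in the gastrocnemius (-0.62) and soleus (-0.59). Mtfmt, which formylates the mitochondrial initiator, rose in the tibialis anterior (0.63).

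Mitochondrial synthetases had median changes of 0.07 (diaphragm), -0.16 (gastrocnemius), -0.18 (soleus) and -0.16 (tibialis anterior). At an adjusted p alone, 5 of the 15 were higher and 1 lower in the diaphragm (all genes 20.3% and 24.7%). The counts were 1 and 7 for the gastrocnemius (33.2% and 28.9%) and 1 and 8 for the soleus (27.4% and 26.4%). For the tibialis anterior they were 3 and 8 (37.7% and 36.5%). The other 21 members had medians of 0.05, 0.02, -0.16 and -0.08 in the same order of muscles. At an adjusted p alone, 7, 6, 2 and 6 of them were higher and 3, 10, 13 and 11 lower. Aars2 levels in the gastrocnemius went from 22.4 to 29.1 CPM (median 26.6) at 6 months to 12.5 to 23.2 (median 16.9) at 27 months. The ranges overlapped slightly, and the change of -0.60 (SE 0.095, adjusted p = 1.1e-07) was called. With total counts alone it was -0.32, under 1.5-fold, and the call was lost.

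Aars2 in the tibialis anterior was close to that threshold. Its libraries held 18.5 to 22.0 CPM at 6 months (median 19.9) and 8.93 to 19.1 at 27 months (median 13.1), a change of -0.57 (SE 0.091, adjusted p = 5.0e-08) that was just under 1.5-fold. It passed at -0.65 without the 4 tibialis anterior libraries that stood apart, 2 of them at 27 months. The soleus change was -0.30 and that of the diaphragm 0.06. The change in the diaphragm differed from that in the gastrocnemius (-0.71, adjusted p = 2.9e-08) and in the tibialis anterior (-0.68, adjusted p = 1.0e-07).

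Yars2, the mitochondrial tyrosine enzyme, was at 11.7 to 14.6 CPM in the young soleus (median 13.5) and 6.21 to 12.2 in the old (median 8.93). The ranges overlapped and the change of -0.58 (SE 0.079, adjusted p = 1.5e-09) was just under 1.5-fold. Elsewhere it was -0.45 (tibialis anterior), -0.30 (gastrocnemius) and -0.01 (diaphragm). Rars2, for arginine, showed soleus levels of 17.5 to 22.5 CPM at 6 months and 11.2 to 17.1 at 27 months, with no overlap (-0.49, adjusted p = 1.25e-09), while its change in the gastrocnemius was 0.22. That difference between the muscles was called (-0.71, adjusted p = 1.5e-09, soleus minus gastrocnemius).

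Pars2 and Sars2 were the mitochondrial members with the largest 27-month changes in the diaphragm. Pars2, for proline, was at 5.92 to 8.10 CPM at 6 months (median 6.90) and 8.28 to 11 at 27 months (median 9.23). It was the 1 member whose diaphragm groups did not overlap, against 2.92% of all genes, with a change of 0.42 (SE 0.066, adjusted p = 2.8e-07). It changed by 0.21 in the tibialis anterior (SE 0.077, adjusted p = 0.011), with values of -0.10 (gastrocnemius) and -0.10 (soleus), and no difference of its change between muscles was called. Sars2, for serine, changed by 0.40 in the diaphragm (SE 0.066, adjusted p = 6.3e-07) from 11.8 to 16.4 CPM at 6 months to 11.7 to 21.5 at 27 months. Its limb muscle changes were -0.37, -0.18 and -0.25 in the gastrocnemius, soleus and tibialis anterior. The differences from the diaphragm were -0.83 (adjusted p = 5.8e-11), -0.63 (adjusted p = 4.1e-07) and -0.70 (adjusted p = 1.0e-08).

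Lars2 and Vars2 were not lower at an adjusted p under 0.05 in any muscle at 27 months. Lars2, for leucine, changed by 0.26 in the tibialis anterior, 0.20 in the soleus, 0.14 in the diaphragm and 0.06 in the gastrocnemius. Vars2, for valine, changed by 0.22 in the diaphragm and 0.09 in the tibialis anterior. Its changes in the gastrocnemius and soleus were negative, at an adjusted p of 0.05 or over. Hars2, for histidine, was lower in the soleus (-0.36) and tibialis anterior (-0.19), with a change of 0.03 in the gastrocnemius. Wars2, for tryptophan, was lower in the tibialis anterior (-0.26) and soleus (-0.18), with a change of -0.02 in the gastrocnemius.

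Genes of mitochondrial content were lower in the same muscles. All 10 were tested, and their median change was -0.11 (diaphragm), -0.37 (gastrocnemius), -0.40 (soleus) and -0.40 (tibialis anterior), with 0, 2, 2 and 3 called lower. Of all genes, 4.25%, 7.76%, 5.78% and 10.4% were called lower in these muscles. Idh3a, a subunit of a citric acid cycle enzyme, fell in the tibialis anterior (-0.79) and gastrocnemius (-0.65), and Vdac1, a channel of the outer membrane, fell in the same muscles (-0.62 and -0.71). Of 17 factors of mitochondrial translation, 0, 0, 2 and 3 were called lower and none higher, with medians of 0.01, -0.15, -0.21 and -0.26. Guf1, an elongation factor, fell in the soleus (-0.70) and tibialis anterior (-0.95), and Mtif2, an initiation factor, in the tibialis anterior (-0.76). The part of mitochondrial content in the synthetase values was not tested.

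Pstk adds a phosphate to serine on the selenocysteine transfer RNA, a step on the way to selenoproteins. It had the largest fall of any member. Tibialis anterior libraries held 14.5 to 19.6 CPM at 6 months (median 16.1) and 5.65 to 12.8 at 27 months (median 8.82), with no overlap. The change was -0.91 (SE 0.11, adjusted p = 1.5e-11). Soleus libraries held 8.22 to 12.4 CPM (median 10.3) and 4.86 to 11.1 (median 6.83), an overlapping pair of groups with a change of -0.63 (SE 0.11, adjusted p = 3.9e-07).

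The gastrocnemius fall of Pstk sat at the threshold. Its levels were 13.0 to 18.9 CPM at 6 months (median 16.8), 7.92 to 13.8 at 24 months (median 11.2) and 7.82 to 16.4 at 27 months (median 10.6). The change was called at 24 months (-0.60, SE 0.10, adjusted p = 5.6e-07) and was just under 1.5-fold at 27 months (-0.55, SE 0.093, adjusted p = 5.0e-07). In the diaphragm the range of 14.0 to 17.9 CPM (median 17.0) became 11.6 to 19.3 (median 13.8), a change of -0.17. The tibialis anterior and diaphragm differed in their change (-0.78, adjusted p = 3.4e-08). With total counts alone the tibialis anterior change was -0.56 and the soleus change -0.47, both under 1.5-fold, and by edgeR the soleus change was -0.58.

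**Figure D3:**
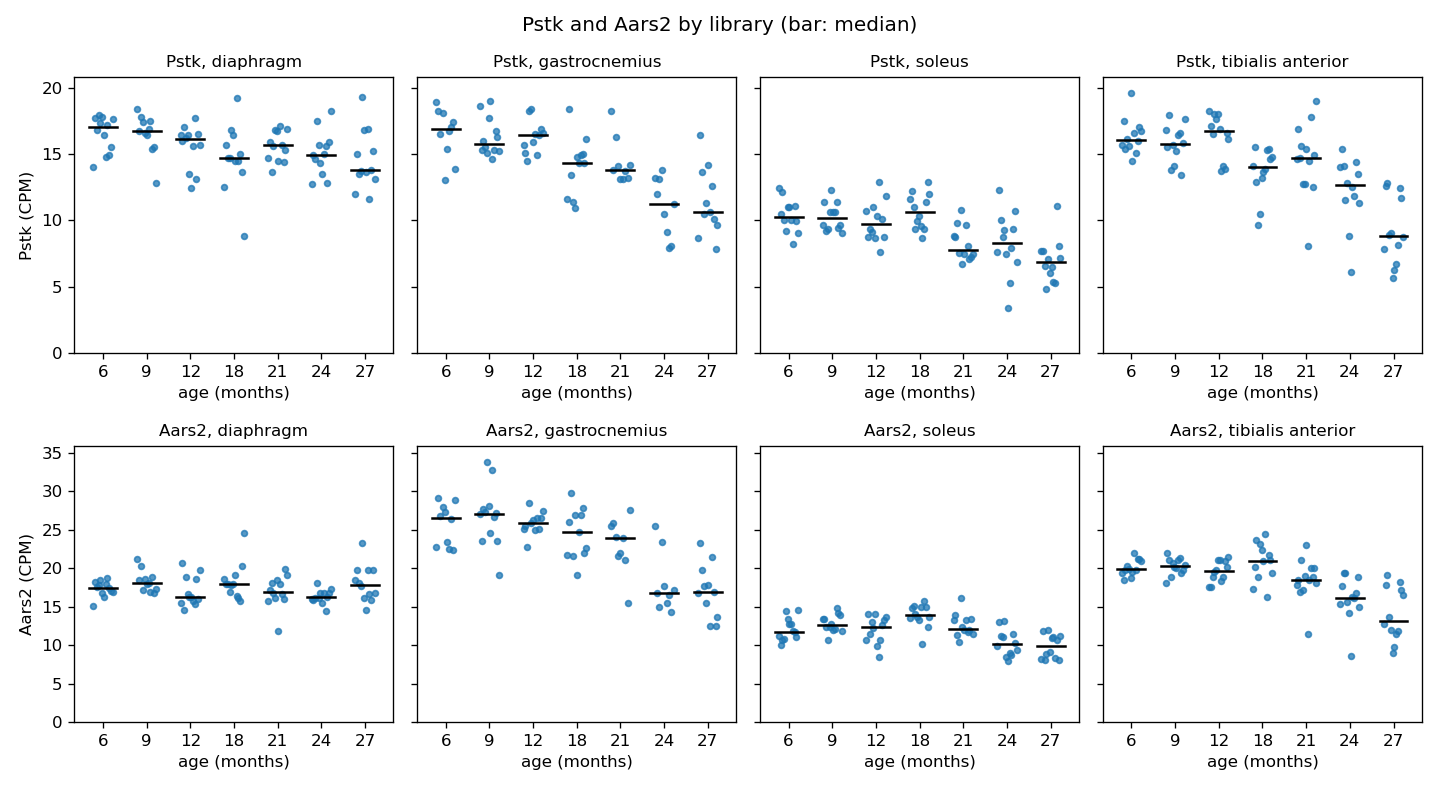
Levels of Pstk (upper panels) and Aars2 (lower panels) in CPM on the y axis against age in months, with 1 point per library and a bar at the group median, by muscle. Pstk medians go from 16.1 at 6 months to 8.82 at 27 months in the tibialis anterior and from 10.3 to 6.83 in the soleus, and Aars2 medians from 26.6 to 16.9 in the gastrocnemius.

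Other genes of the selenocysteine route were called in no muscle. Sepsecs, which completes selenocysteine on the transfer RNA, changed by -0.44 in the tibialis anterior and -0.34 in the soleus. Sephs2, which makes the selenium donor, changed by -0.47 in the tibialis anterior and -0.42 in the gastrocnemius. Eefsec, the elongation factor for selenocysteine, had a positive change in the tibialis anterior (0.28).

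When the shape of the change was asked, null, linear and logistic models of the log2 level on age were compared by the Bayesian information criterion. A member called at any age and with a trend was taken as age-related. This held for 3 members of the gastrocnemius, 2 of the tibialis anterior, 1 of the soleus and 0 of the diaphragm. Farsb was late in both fast muscles, with an inflection at 21.75 months in the gastrocnemius and 24.5 months in the tibialis anterior. Aars2 in the gastrocnemius was late too (22 months). Pstk fell linearly in the gastrocnemius, in mid life in the soleus (20.75 months) and late in the tibialis anterior (27 months, the last age sampled). Trends of any size were found for 9, 24, 22 and 21 members in diaphragm, gastrocnemius, soleus and tibialis anterior, in this order. Of these, 1, 16, 21 and 13 were falling, and 6, 10, 11 and 12 had an inflection after 21 months. The models were fitted to the members alone. None of these counts, the age-related ones among them, can thus be set beside a share of all genes.

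At 6 months 8 members differed between the slow soleus and the gastrocnemius and 7 between the soleus and the tibialis anterior. Aars2 was lower in the soleus than in the gastrocnemius, with a log2 difference of 1.42 (SE 0.086, adjusted p = 9.2e-43), and lower than in the tibialis anterior by 1.10 (SE 0.084, adjusted p = 3.1e-30). Scaled within each muscle, its libraries held 10 to 14.5 CPM in the soleus, 22.4 to 29.1 in the gastrocnemius and 18.5 to 22.0 in the tibialis anterior. Fars2 for phenylalanine (differences of 0.92 and 0.63) and Tars2 for threonine (0.82 and 0.71) were also lower in the soleus than in the gastrocnemius and tibialis anterior. Rars2 went the other way. It was higher in the soleus than in the gastrocnemius by 1.22 (SE 0.075, adjusted p = 3.5e-42) and than in the tibialis anterior by 0.77 (SE 0.067, adjusted p = 7.5e-25).

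Between the gastrocnemius and soleus 8 of 36 members were called at 6 months, against 45.4% of all genes, and 5 of the 7 that were lower in the soleus were mitochondrial. Between the soleus and tibialis anterior the count was 7, against 42.9%. The shares of members thus stayed below the background. Of the 15 mitochondrial members 6 and 5 were called, also shares below the background. Pstk was lower in the soleus than in the gastrocnemius (0.99), tibialis anterior (1.01) and diaphragm (0.65), the last being the 1 member called between the diaphragm and soleus (23.9% of genes). Farsa was lower in the soleus than in the gastrocnemius (1.05) and tibialis anterior (0.65).

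Between the diaphragm and gastrocnemius 4 members were called, against 37.3% of genes, with Aars2 (0.90), Farsa (0.87) and Sars (0.69) higher in the gastrocnemius and Rars2 lower (-0.77). Lars for leucine and Nars for asparagine were higher in the tibialis anterior than in the diaphragm (0.59 each, 35.1% of genes), just past the threshold. No member was called between the gastrocnemius and tibialis anterior, against 17.3%, and 23 members had an unadjusted p under 0.05 there and 0 were called by edgeR.

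**Figure D4:**
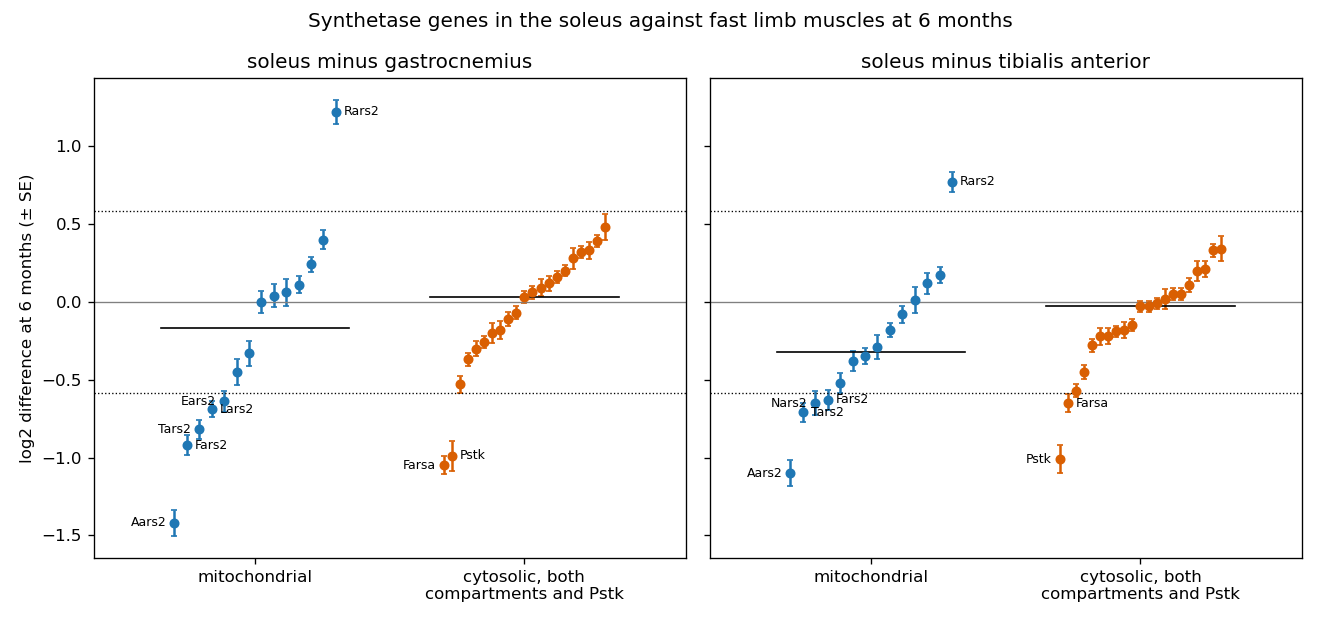
Difference of the synthetase genes (without the same 1 member) at 6 months between the soleus and the gastrocnemius (left) and tibialis anterior (right), as log2 difference with its SE on the y axis, for mitochondrial members and for the rest, with medians of the plotted genes as lines and called members named. Values below 0 are lower in the soleus, where Aars2 is lowest among the mitochondrial members and Rars2 highest, and dotted lines mark 1.5-fold.

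Whether the change from 6 to 27 months differed between muscles was tested for each pair. The diaphragm differed from the gastrocnemius in 5 members (21.6% of all genes), from the soleus in 3 (11.9%) and from the tibialis anterior in 4 (20.3%). The gastrocnemius and soleus differed in 3 (14.5%), the soleus and tibialis anterior in 1 (15.8%) and the gastrocnemius and tibialis anterior in 0 (7.32%), where 16 members had an unadjusted p under 0.05 and edgeR also called 0. Sars2 was among the members in which the diaphragm differed from each limb muscle, and Farsb was called in 4 of the 6 pairs. The comparisons of 1 muscle with several others share its libraries.

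Elongation genes had 2 called members, Eef1a1 and Eef2k. Eef1a1, the elongation factor that carries it to the ribosome, rose in the tibialis anterior (1.97, adjusted p = 4.04e-20) and gastrocnemius (1.52, adjusted p = 1.54e-21), with changes of 0.54 in the soleus and 0.21 in the diaphragm. Eef2k, the kinase that inhibits elongation, fell in the tibialis anterior (-1.04) and gastrocnemius (-0.81). No other of the 8 elongation genes was called, and the median changes of the 8 were 0.14 (diaphragm), -0.12 (gastrocnemius), 0.11 (soleus) and 0.02 (tibialis anterior). Of 21 initiation genes 1, 0, 0 and 4 were called lower and 0, 1, 0 and 1 higher, in the order diaphragm, gastrocnemius, soleus and tibialis anterior. In this order 4.25%, 7.76%, 5.78% and 10.4% of all genes were lower and 3.27%, 15.1%, 9.21% and 17.2% higher. Eif4a1, the helicase of the cap complex, rose in the tibialis anterior (0.80). Eif3a rose in the gastrocnemius (0.87) and fell in the diaphragm (-0.76).

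Genes of the amino acid response were examined because several synthetases carry the element shown above. The transcript of Atf4 itself fell in the tibialis anterior (-1.22), gastrocnemius (-0.98) and soleus (-0.59). Slc7a5, a transporter of large neutral amino acids, phenylalanine among them, rose in these muscles (2.65, 1.17 and 1.07). Of the 29 listed genes, 2 were higher and 1 lower in the diaphragm (27 tested). The counts were 3 and 3 for the gastrocnemius (27), 7 and 4 for the soleus (28) and 7 and 4 for the tibialis anterior (26). The shares of all genes called higher and lower were 3.27% and 4.25% (diaphragm) and 15.1% and 7.76% (gastrocnemius). They were 9.21% and 5.78% for the soleus and 17.2% and 10.4% for the tibialis anterior. Chac1 was lower in the tibialis anterior (-2.52) and gastrocnemius (-2.20) and higher in the soleus (0.90). Members thus went both ways within a muscle. The 7 synthetases with the element had medians of 0.09, -0.19, -0.12 and -0.09 in the 4 muscles, beside 0.07, 0.04, -0.13 and -0.03 for the 9 other cytosolic members with a promoter sequence, and none of the 7 was called. Among the stress kinases that act upstream, Eif2ak2 fell in the diaphragm (-0.85) and rose in the gastrocnemius (0.64).

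Levels of denervation genes and of markers of cell and fibre types shifted over the same ages. In bulk tissue fewer cells of a type and less RNA per cell cannot be told apart. Counts of these lists, here and below, stand beside the shares of all genes called. These were 3.27%, 15.1%, 9.21% and 17.2% higher and 4.25%, 7.76%, 5.78% and 10.4% lower in diaphragm, gastrocnemius, soleus and tibialis anterior. All 9 denervation genes rose in each muscle, with medians of 1.25, 3.34, 2.25 and 4.49 in diaphragm, gastrocnemius, soleus and tibialis anterior, in this order, and their summed level in the tibialis anterior was 82.2 to 130 CPM at 6 months and 746 to 2830 at 27 months. Chrna1, the alpha subunit of the muscle acetylcholine receptor, rose by 5.35 on the log2 scale in this muscle and by 1.29 in the diaphragm. Macrophage markers rose in 10 of 11 genes in both the gastrocnemius and tibialis anterior, in 2 in the soleus and in 1 in the diaphragm. Their sum in the tibialis anterior was 71.0 to 117 and 144 to 314 CPM. T cell markers rose in 3 of 7 tested genes in the diaphragm, 4 of 5 in the gastrocnemius, 3 of 5 in the soleus (where 1 fell) and 5 of 5 in the tibialis anterior, where their sum went from 3.75 to 5.52 CPM to 6.78 to 15.4. No gene of these lists had 0 counts in all libraries of a muscle.

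Adipocyte markers rose in 4 of 6 genes in each limb muscle and fell in 1 in the diaphragm. Of 13 interferon response genes, 8 rose in the gastrocnemius, 8 in the tibialis anterior and 5 in the soleus, and 1 fell in the diaphragm and 1 in the tibialis anterior. Of 7 endothelial markers 0, 1, 1 and 1 fell, of 6 fibroblast markers 4, 2, 2 and 0 fell, and of 6 Schwann cell markers 1 rose and 2 fell in the gastrocnemius and 1 rose in the tibialis anterior. Fast fibre markers rose in 8 of 9 genes in the soleus and 1 in the diaphragm, and fell in 3 of 9 in the gastrocnemius and tibialis anterior, while slow fibre markers fell in 1 of 7 in the soleus and 2 of 7 in the tibialis anterior. The part of these shifts in the synthetase values was not tested.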

How the data were processed

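Total RNA of the 325 muscle libraries was sequenced as strand-specific paired reads after removal of ribosomal RNA. The authors aligned the reads in ArrayStudio to the rat B6.0 genome with a RefSeq-based gene model and deposited raw counts per gene, 17870 lines per file, 1 file per library. Lines of 1 symbol were summed to 17315 symbols. Totals of 17.6 to 85.3 M counts per library set the counting precision. No columns of the authors' comparisons were used. Groups were taken from muscle and age in the sample labels.

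Within each muscle, counts were filtered (minimum count 10, minimum total 15), scaled by trimmed mean of M values, and tested with limma-voom (limma 3.58.1, edgeR 4.0.16, R 4.3.3) for each age against 6 months, with Benjamini-Hochberg adjustment over all genes tested (11754 to 12175). The study's methods adjusted by Bonferroni, which was tried as an alternative. Muscles at 6 months and the difference of their 27-month changes were compared in 1 fit over all libraries (12784 genes). Trends were chosen by the Bayesian information criterion, with a margin of 6 over no trend and 2 between linear and logistic. CPM values in the text use these scale factors within a muscle. Scripts were tested on simulated counts. Replicates were compared, and 0 pairs held identical values. Alternatives were other scalings, no filter, edgeR's quasi-likelihood test, DESeq2 1.42.0, no fold threshold, a replicate block, and leaving out libraries. The members, gene lists and motifs were chosen with earlier results of these data known. Members were named if called at 27 months, if among the 3 cytosolic or 3 mitochondrial members with the largest absolute 27-month change of a muscle, or if among the 2 largest differences at 6 months or the largest difference in change of a pair of muscles. Gars, Kars and Pstk were always named, as were the 2 largest called changes of each pathway list. Other members, including those whose groups did not overlap, were named after their values were seen. Promoters were taken from a RefSeq table (GRCr8). Values of 1 mitochondrial member and 1 promoter window are not reported here.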

Additional observations from a re-analysis of the deposited data

Results flagged for a closer look

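Named members were tested in groups of 4 to 10 libraries, 75 pairs of a member and a group in all. In 4 of these pairs the gap of a library to its nearest neighbour passed Dixon's 95% limit. Chance gives 3.75 at 1 in 20, and members tested in 1 group share its libraries. The gastrocnemius groups at 6, 21 and 24 months (n = 10, 9 and 9) were the only ones with 10 or fewer libraries, so no other muscle was tested. The lowest 6-month library of Rars2 was at 2.25 log2 CPM, with the next at 2.66 (n = 10). At 21 months the highest library of Aars was at 6.81, with the next at 6.55, and the lowest of Aars2 at 3.95, with the next at 4.40 (n = 9). The lowest 24-month library of Eprs was at 7.17, with the next at 7.49 (n = 9).

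In 16 cases the change from 6 to 27 months differed between muscles by the test of the difference itself (limma, adjusted p under 0.05 and over 1.5-fold). Against the diaphragm, the gastrocnemius change differed by -0.71 for Aars2, 0.62 for Dars, 0.91 for Farsb, -0.69 for Sars and -0.83 for Sars2 on the log2 scale. The soleus change differed from that of the diaphragm by -0.62 for Aars, -0.63 for Sars2 and -0.63 for Yars2. The tibialis anterior change differed from it by -0.68 for Aars2, 1.05 for Farsb, -0.78 for Pstk and -0.70 for Sars2. The soleus change differed from that of the gastrocnemius by -0.69 for Dars, -1.18 for Farsb and -0.71 for Rars2. The tibialis anterior change of Farsb differed from that of the soleus by 1.32.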

How the results depend on the processing

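Bonferroni adjustment, DESeq2 and a trend margin of 10 left every count of members they were applied to within 1.5 times. DESeq2 was not run on the comparisons between muscles. Leaving out the third series of label numbers in its muscles also kept the counts within 1.5 times. The replicate block did so too, with the count between the diaphragm and soleus going from 3 to 4. Within a muscle this block ties equal numbers of different ages, which are different animals. Its counts there thus cannot speak to pairing. Whether same-numbered libraries share an animal is not given by the labels, and the correlation of their deviations (median 0.03 to 0.20 over the 6 pairs of muscles) was not over 0.1 in every pair of libraries, so the numbers were not used for pairing. A library correlated best with its own number in 43 of 84 cases (soleus and tibialis anterior) and 42 of 83 (diaphragm and tibialis anterior). It did so in 36 of 83 (diaphragm and soleus) and in 13 to 19 of 72 or 73 (gastrocnemius with each). With 12 libraries in most groups, chance alone would give fewer such cases. Same-numbered libraries may thus well share an animal, more clearly outside the gastrocnemius. This comes from the data and not from the labels, and a correlation over 0.1 in every pair was a strict rule for pairing. The fit over all muscles took libraries as independent, so its p-values take no account of animals that muscles may share. The 27-month change of Farsb stayed between 0.96 and 1.28 in the gastrocnemius and 1.12 and 1.45 in the tibialis anterior over the alternatives. Without the fold threshold the members higher and lower were 12 and 4 in the diaphragm, 7 and 17 in the gastrocnemius, 3 and 21 in the soleus and 9 and 19 in the tibialis anterior. The soleus count lower was 2 with relative log expression scaling and 2 without the filter, as Yars2 passed 1.5-fold, and 0 by edgeR. Relative log expression scaling also gave 0 members between the diaphragm and tibialis anterior at 6 months and 2 soleus trends. Without the libraries that stood apart, an alternative added after seeing the data, 2 members were lower in the gastrocnemius and 2 in the tibialis anterior. Scaling by total counts alone raised the median of all genes (0.32 in the gastrocnemius and 0.34 in the tibialis anterior) and gave 3 higher and 0 lower in the gastrocnemius, 0 lower in the soleus, and 2 higher and 0 lower in the tibialis anterior. It also gave 8 members between the diaphragm and gastrocnemius at 6 months, 0 ageing differences between the diaphragm and soleus, 2 between the diaphragm and tibialis anterior, and 0 soleus trends.

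The same scaling turned the sign of small changes. In the diaphragm the values became 0.00 for Kars, 0.02 for Nars and 0.03 for Yars2. In the gastrocnemius they became 0.13 for Gars, 0.08 for Qars, 0.18 for Pars2, 0.26 for Vars2, 0.08 for Iars, 0.05 for Farsa, 0.12 for Tars2 and 0.26 for Wars2. In the soleus they became 0.02 for Qars, 0.05 for Pars2, 0.09 for Vars2, 0.03 for Fars2, 0.09 for Lars and 0.09 for Nars. For the tibialis anterior they became 0.23 for Gars, 0.22 for Dars, 0.28 for Qars, 0.09 for Sars2, 0.01 for Sars, 0.09 for Aars, 0.15 for Fars2, 0.17 for Vars, 0.24 for Rars2, 0.13 for Hars2, 0.08 for Iars, 0.29 for Farsa, 0.26 for Tars2, 0.24 for Lars, 0.24 for Nars and 0.07 for Wars2. The diaphragm change of Yars2 was 0.00 with relative log expression scaling, without the filter and without the third series, and 0.01 without the libraries that stood apart. Without those libraries the gastrocnemius changes of Vars2 and Hars2 were 0.01 and -0.02.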

Other observations

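Within the 27-month libraries, levels of Farsb and Pstk were set against the mean level of the 9 denervation genes, in 5 relations chosen after the values were seen. Farsb in the soleus and both genes in the diaphragm were left out, and p-values were adjusted over the 5 relations alone. Libraries share depth and scaling, so these are descriptions. For Pstk in the tibialis anterior (n = 12) Pearson's r was -0.86 (permutation p = 6e-05, adjusted p = 0.0003) and Spearman's rho -0.93 (permutation p = 6e-05, adjusted p = 0.0003), and r was -0.88 without the 2 libraries farthest from the median. For Pstk in the soleus (n = 12) r was -0.86 (permutation p = 0.0012, adjusted p = 0.0022), rho -0.85 (permutation p = 0.0013, adjusted p = 0.0032), and r without 2 libraries -0.69. For Farsb in the tibialis anterior (n = 12) r was 0.82 (permutation p = 0.0013, adjusted p = 0.0022), rho 0.79 (permutation p = 0.0039, adjusted p = 0.0064), and r without 2 libraries 0.61.

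The gastrocnemius relations (n = 11) were less firm. For Farsb r was 0.71 (permutation p = 0.0081, adjusted p = 0.01) and rho 0.50 (permutation p = 0.12, adjusted p = 0.12), with r at 0.45 without 2 libraries. For Pstk r was -0.73 (permutation p = 0.013, adjusted p = 0.013) and rho -0.54 (permutation p = 0.096, adjusted p = 0.12), and with r at -0.29 without 2 libraries the relation rests on those libraries.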
